A study of Arabidopsis thaliana with 6 samples.

Results

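Arabidopsis thaliana seedlings that overexpressed OsTOP6B, a rice cDNA for the B subunit of topoisomerase VI, were compared with wild-type seedlings across the whole array. The comparison was defined by the labels: the 2 arrays of OsTOP6B overexpressors were set against the 2 arrays of wild type, which are 4 of the 6 arrays in the study. The remaining 2 arrays, of seedlings overexpressing the rice A subunit OsTOP6A3, entered the fit for its estimate of spread. All seedlings were 10 days old and light-grown on agar medium with 2% sucrose after 72 h in the cold, and all carried the ecotype label Columbia except wild-type replicate 1, which has no ecotype label. The labels give neither the promoter of the transgene nor the number of transformed lines, and they name no empty-vector line, so OsTOP6B itself and the transformed line cannot be told apart as the source of a difference. The rice transcripts themselves were not analysed here, since no probe set was named for them.

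Topoisomerase VI is a type II topoisomerase that passes one DNA duplex through a transient break in another. The B subunit binds and hydrolyses ATP, and the A subunit, a relative of the meiotic protein Spo11, cuts the DNA. Plants use the enzyme in endoreduplication, the rounds of DNA synthesis without division that go with growth of leaf cells and root hairs, and Arabidopsis plants that lack it are dwarfed.

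Values below are log2(intensity + 16) after quantile normalization, with n = 2 arrays per group. Errors are standard errors from limma, p values are limma's with Benjamini-Hochberg adjustment over 17059 probe sets, and a call is an adjusted p under 0.05. Replicate arrays of OsTOP6B overexpressors differed by a median of 0.193 on the log2 scale in either direction, against 0.143 for wild type. On the linear deposited scale the control probe set for 25S ribosomal RNA stood at 315 on OsTOP6B replicate 1 and at 46.7 on OsTOP6B replicate 2, against 23.9 and 53.7 in wild type. OsTOP6B replicate 1 was thus high against each of the other arrays, whereas the 5S control read 14.1 on both OsTOP6B arrays. The Bacillus control probe sets had medians of 119.65 and 65.9 on the OsTOP6B arrays, against 73.7 and 50.3 in wild type. Between OsTOP6B replicates 107 tested probe sets differed at least 2-fold, and in 82 of these replicate 1 was the higher. The seedlings expressed markers of both shoot and root, with normalized linear levels of RCA (Rubisco activase) at 7437 and 8792 on the OsTOP6B arrays and 7800 and 8370 in wild type, and of PYK10 (a root beta-glucosidase) at 7757 and 6472, against 6161 and 6582 in wild type. Only a small part of the marker lists could be measured: 3 of 13 root, 2 of 8 mesophyll, 1 of 4 guard cell, 1 of 4 trichome and 1 of 4 meristem markers.

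Changes in OsTOP6B overexpressors were many and mostly small. Of 17059 tested probe sets 1350 were higher than in wild type, or 7.91%, and 1190 were lower, or 6.98%, which makes 14.9% called. The median rise was 1.74-fold and the median fall 1.63-fold. Rises of at least 2-fold numbered 451 and falls of at least 2-fold 242, while 653 rises and 637 falls lay between 1.5-fold and 2-fold. Many calls depended on single arrays: 753 probe sets, 4.41% of those tested, were called in each of the fits that left out 1 of the 4 arrays. Among the 693 calls of at least 2-fold, 79.4% were called in every such fit. Without OsTOP6B replicate 1, the array with the high 25S signal, 1053 were higher and 1157 lower. Without wild-type replicate 1 the counts were 698 higher and 356 lower, and without wild-type replicate 2 they were 793 higher and 458 lower.

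After quantile normalization, rises lay at lower wild-type signal than falls, an order that depends in part on how the bands and the filter were set. With tested probe sets cut into 4 bands of equal size by their wild-type mean, 494 rises and 130 falls lay in the lowest band, 345 and 327 in the next, 276 and 317 in the third, and 235 and 416 in the highest. Rises in the lowest band had a median of 1.92-fold, against 1.61-fold in the highest. This order comes in part from the way the bands were cut, because they use the wild-type arrays of the comparison itself. The filter adds to it, since it used the mean of all 6 arrays. On both wild-type arrays 193 tested probe sets lay below its limit of 4.97, so they passed it only through the overexpressors. Of these 125 were among the rises of the lowest band and add nothing to its count. On both OsTOP6B arrays 111 tested probe sets lay below the limit. The 54 of these that were called lower passed the filter only through the other arrays, and add nothing to the count of falls. Cut by the mean of all 6 arrays, the bands held 283 rises and 273 falls, 371 and 317, 359 and 283, and 337 and 317. The signal of a probe set also depends on its probes, so the bands order array signal and not transcript numbers. Without OsTOP6B replicate 1 the lowest wild-type band held 377 rises and 191 falls and the highest held 187 and 364. On the deposited scale, unscaled between arrays, rises outnumbered falls in every band, at 486 and 29 in the lowest, 315 and 71 in the next, 239 and 53 in the third, and 190 and 74 in the highest, with a median difference of 0.18 over all tested probe sets.

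**Figure D1:**
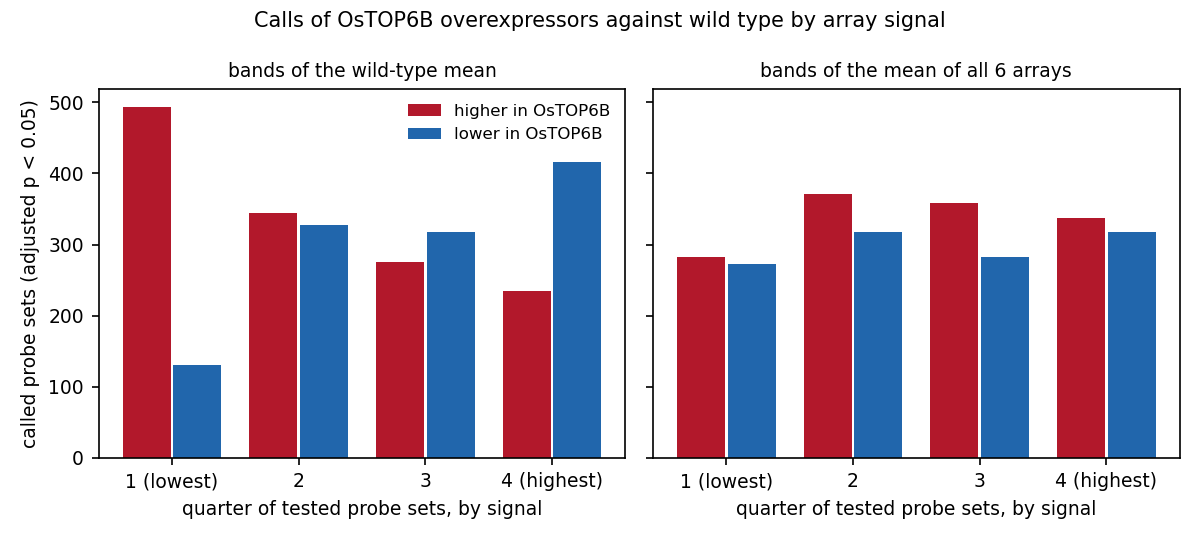
Bars give the number of probe sets called higher (red) or lower (blue) in OsTOP6B overexpressors than in wild type, in bands of the tested probe sets ordered by signal. With bands of the wild-type mean (left) 494 rises lay in the lowest band, in part through the band cut and the filter. With bands of the mean of all 6 arrays (right) the bars were more even, at 283 to 371 rises.

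At the low end stood genes with little signal in wild type. M17, a gene of the late embryogenesis abundant type, had 7.94 and 8.86 in OsTOP6B overexpressors, against 4.69 and 4.61 in wild type, a rise of 3.75 ± 0.27 or 13.5-fold (adjusted p = 0.0003). The cytochrome P450 gene CYP71B34 had 8.07 and 8.14 in OsTOP6B overexpressors, against 4.85 and 4.48 in wild type, and rose 10.8-fold (adjusted p = 8.46e-05). In both genes the wild-type arrays lay below 4.97, the limit used as the filter on low values, and both OsTOP6B arrays lay far above it. Such genes passed the filter only through the overexpressors, so their number says nothing further. The folds depend on the pseudocount of 16, which shrinks changes near background.

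At the high end the most strongly lit twentieth of wild-type probe sets held 853 probe sets, with 30 rises and 79 falls, or 12.8% called against 14.9% of all. Of these, 3 rises and 16 falls were at least 2-fold. The twentieth was picked by the wild-type arrays of the comparison itself, which favours falls. On the deposited scale the whole highest band of wild type held 190 rises and 74 falls. Several of the largest changes in the twentieth have only a locus name in the annotation used. AT5G47550 had 9.29 and 9.57 in OsTOP6B overexpressors, against 10.99 and 11.01 in wild type, and fell 2.97-fold (adjusted p = 0.00148). AT5G62350 had 9.8 and 9.78 in OsTOP6B overexpressors, against 11.33 and 11.13 in wild type, and fell 2.71-fold. The groups were well apart in both genes, with each call also made when any 1 of the 4 arrays was left out. AT3G49910 had 12.4 and 12.74 in OsTOP6B overexpressors, against 11.55 and 11.55 in wild type, a rise of 1.02 ± 0.15 or 2.03-fold. Of the rises of at least 2-fold in this range it was one of 3.

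Gene families were followed through 43 lists of 690 genes, which cover only genes whose probe set has 1 gene with a symbol. The lists are therefore samples of each family, and each is described by how many of its tested members passed, beside the 7.91% of probe sets higher and 6.98% lower over the array. Lists and members were chosen with earlier results of these data known. A called share above that of the array is thus no test of a family. The median log2 difference over all tested probe sets was -0.02. Arrays of OsTOP6B overexpressors and wild type did not overlap in 57.3% of all tested probe sets, being wholly higher in 27.2% and wholly lower in 30.1%, so a lack of overlap is common here.

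**Figure D2:**
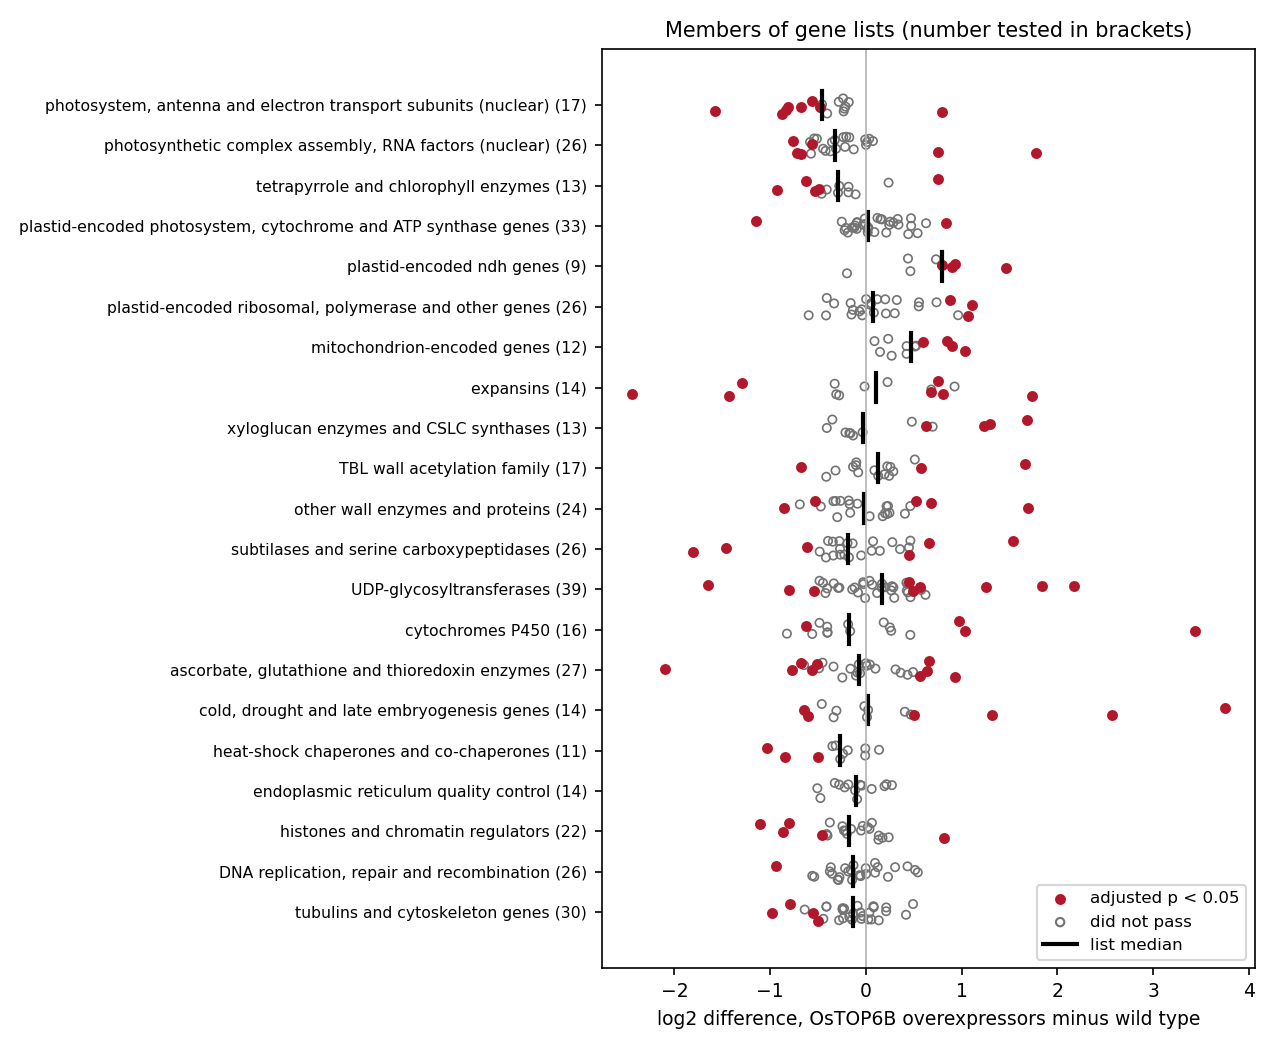
Each point is the log2 difference, OsTOP6B overexpressors minus wild type, of 1 tested gene in 1 of 21 gene lists; red points passed (adjusted p under 0.05), open points did not, and black bars are list medians. Nuclear photosystem genes lie mainly left of 0 with a median of -0.46, whereas expansins hold large changes on both sides.

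Cell wall genes rose and fell in OsTOP6B overexpressors, with differences of up to 5.46-fold. Expansins are proteins that loosen the wall during cell growth, and of 14 tested members 4 rose and 3 fell, or 2 and 3 without wild-type replicate 1. EXPA7, an expansin of root hairs, had 7.75 and 7.85 in OsTOP6B overexpressors, against 6.22 and 5.92 in wild type, and rose 3.32-fold (1.73 ± 0.16 on the log2 scale, adjusted p = 0.00077). EXPA18, also a root-hair expansin, had 7.53 and 7.9 in OsTOP6B overexpressors, against 6.84 and 6.98 in wild type, and rose 1.75-fold. The root-hair pair was thus higher on both OsTOP6B arrays, with no overlap, as were 27.2% of all tested probe sets. In whole seedlings more cells of a type and more RNA per cell cannot be told apart. PYK10, the only other root marker measured, had 12.92 and 12.66 in OsTOP6B overexpressors, against 12.59 and 12.69 in wild type, and did not pass (adjusted p = 0.493). Summed normalized linear levels of the 3 root markers, mostly from PYK10, were 8126 and 6910 in OsTOP6B overexpressors, against 6318 and 6738 in wild type, and the part of root content in these results was not tested.

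EXPA8 had the largest fall of the family, with 5.54 and 6.2 in OsTOP6B overexpressors, against 8.23 and 8.41 in wild type, or 5.46-fold lower (adjusted p = 0.000686). EXPB3, a beta-expansin, had 6.59 and 6.58 in OsTOP6B overexpressors, against 8.01 and 8.01 in wild type, and fell 2.69-fold. EXPA15 had 6.91 and 6.68 in OsTOP6B overexpressors, against 8.1 and 8.08 in wild type, and fell 2.46-fold. Replicates of EXPB3 and EXPA15 lay close together in both groups, while those of EXPA8 were less close in OsTOP6B overexpressors. Rises of under 2-fold were seen for EXPA9, at 0.68 ± 0.15, and for the expansin-like gene EXLB1, at 0.76 ± 0.12. The calls of EXPA7, EXPA8, EXPA15, EXPB3 and EXLB1 were made with any 1 of the 4 arrays left out. That of EXPA18 was lost without wild-type replicate 1 (0.0825), the number in brackets being the adjusted p. That of EXPA9 was lost without OsTOP6B replicate 1 (0.0727), wild-type replicate 1 (0.0946) or wild-type replicate 2 (0.104).

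Xyloglucan is the glucan that cross-links cellulose in these walls, and of 13 genes for its synthesis and remodelling 4 rose and 0 fell, with 9 not passing. CSLC04, which encodes a synthase of the xyloglucan backbone, had 8.55 and 8.37 in OsTOP6B overexpressors, against 6.88 and 6.68 in wild type, and rose 3.2-fold (adjusted p = 0.000519). EXGT-A3, a xyloglucan endotransglucosylase gene, had 11.06 and 11.31 in OsTOP6B overexpressors, against 9.86 and 9.91 in wild type, and rose 2.46-fold. These 2 were among the clearest rises of the wall genes and held with each array left out. XTH18 and XTH33, of the same enzyme family, rose 2.35-fold and 1.54-fold. The XTH18 call was lost without OsTOP6B replicate 2 (0.0754) or wild-type replicate 1 (0.0854), and that of XTH33 without OsTOP6B replicate 2 (0.0562), wild-type replicate 1 (0.0827) or wild-type replicate 2 (0.0881). The list's median was -0.04, near that of all probe sets.

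Proteins of the TBL family add acetyl groups to wall polysaccharides, and 2 of 17 rose while 1 fell. TBL37 had 9.42 and 9.52 in OsTOP6B overexpressors, against 7.76 and 7.86 in wild type, a rise of 1.66 ± 0.13 or 3.16-fold (adjusted p = 0.000361). TBL25 rose 1.49-fold and TBL36 fell 1.6-fold. Among 24 other wall genes 3 rose and 2 fell. SKU5, which encodes a GPI-anchored glycoprotein that affects the direction of root growth, had 10.67 and 10.69 in OsTOP6B overexpressors, against 9.02 and 8.95 in wild type, and rose 3.24-fold (adjusted p = 0.000274). The 4 SKU5 values show replicates far closer to each other than the groups were. EXO, a gene of brassinosteroid-linked growth, rose 1.6-fold and the pectin methylesterase gene PMEPCRF 1.43-fold, whereas the glycosyl hydrolase family 9 genes GH9B12 and GH9C2 fell 1.81-fold and 1.45-fold. TBL37 and SKU5 were called with any 1 array left out. The other calls were lost for TBL25 without wild-type replicate 1 (0.0763) or wild-type replicate 2 (0.0902), for TBL36 without OsTOP6B replicate 2 (0.0735), wild-type replicate 1 (0.0843) or wild-type replicate 2 (0.0899), and for EXO without OsTOP6B replicate 1 (0.075), OsTOP6B replicate 2 (0.062) or wild-type replicate 1 (0.127). Those of PMEPCRF were lost without OsTOP6B replicate 1 (0.101), wild-type replicate 1 (0.18) or wild-type replicate 2 (0.108), of GH9B12 without OsTOP6B replicate 1 (0.0954) or wild-type replicate 1 (0.128), and of GH9C2 without OsTOP6B replicate 1 (0.131), OsTOP6B replicate 2 (0.0658), wild-type replicate 1 (0.214) or wild-type replicate 2 (0.106).

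**Figure D3:**
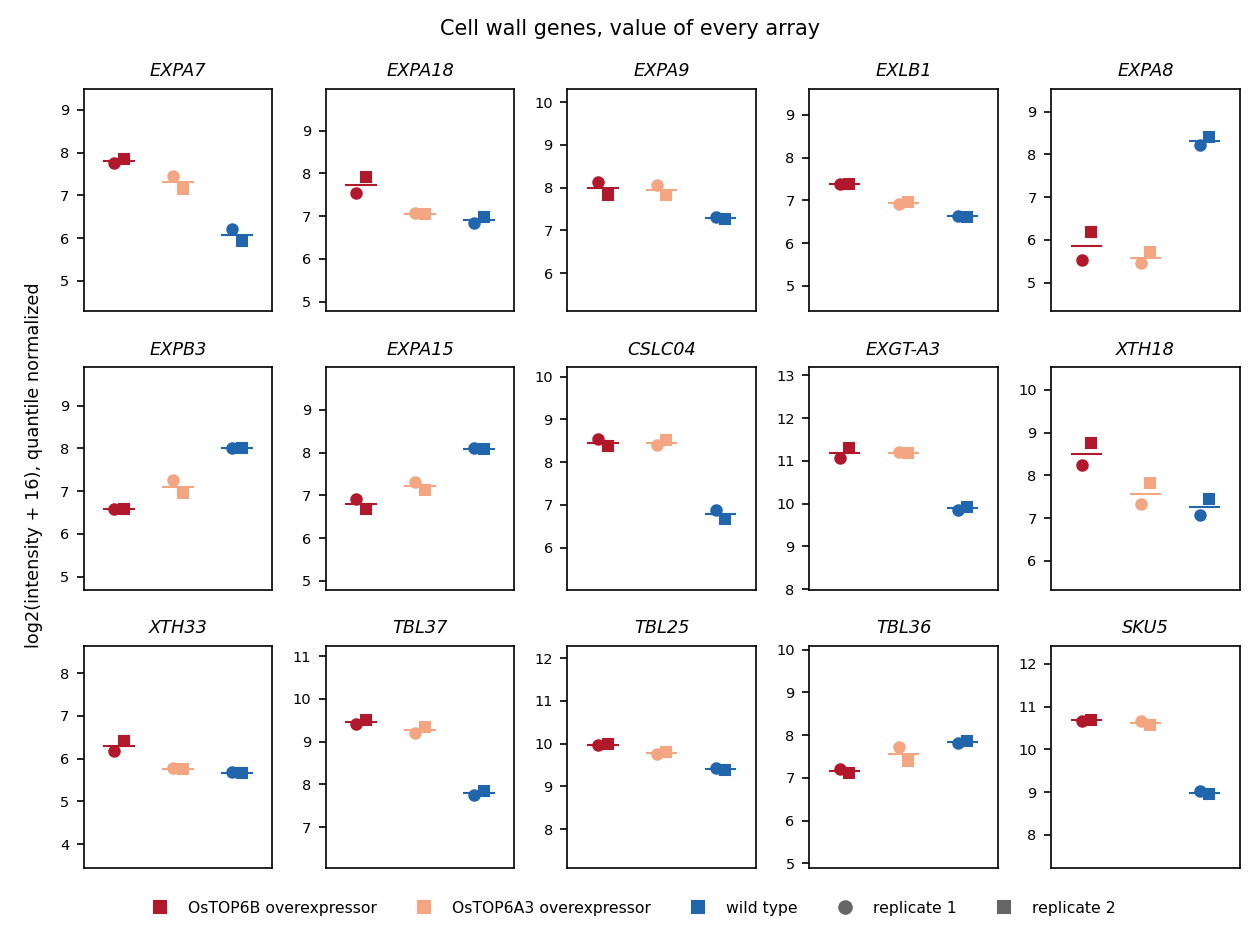
Each panel gives 1 cell wall gene on the log2(intensity + 16) scale, with a circle for replicate 1, a square for replicate 2 and a line for the group mean; every panel spans the same range of log2 units. EXPA7, CSLC04, EXGT-A3, TBL37 and SKU5 lie higher on both OsTOP6B arrays than on both wild-type arrays, and EXPA8, EXPB3 and EXPA15 lie lower.

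The OsTOP6A3 line was set against the same 2 wild-type arrays, and its values for some of these wall genes follow. EXPA18 had 7.07 and 7.05 in OsTOP6A3 overexpressors, a difference from wild type of 0.15 that did not pass (adjusted p = 0.601). XTH18 had 0.31 and XTH33 had 0.09 in the same comparison, and neither passed (adjusted p = 0.468 and 0.69). Tested directly, OsTOP6B minus OsTOP6A3 was 0.66 for EXPA18 (unadjusted p = 0.00303, adjusted p = 0.675), 0.93 for XTH18 (unadjusted p = 0.00522, adjusted p = 0.675) and 0.53 for XTH33 (unadjusted p = 0.00396, adjusted p = 0.675). No probe set passed between the lines in limma, where 1235 had an unadjusted p under 0.05, so no gene is shown to differ between them. EXGT-A3, CSLC04, SKU5 and TBL37 had OsTOP6A3 differences from wild type of 1.31, 1.68, 1.63 and 1.46, all called in limma. EXPA7, the other gene of the root-hair pair, had 1.23 and was called as well (adjusted p = 0.00357). EXPA8, EXPB3 and EXPA15 had -2.74, -0.9 and -0.88, also called, whereas EXLB1 had 0.3 and did not pass (adjusted p = 0.153).

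Nuclear genes of photosynthesis held more falls than rises after quantile normalization, but not on the deposited scale. Of 17 tested genes for subunits of the photosystems, antennae and electron transport 7 fell and 1 rose, or 47.1% called beside 14.9% over the array, with a median difference of -0.46 and 16 of 17 values below 0. The antenna gene LHCB4.3, one of a set for the photosystem II protein CP29, had 8.42 and 8.87 in OsTOP6B overexpressors, against 10.26 and 10.19 in wild type, and fell 2.99-fold (-1.58 ± 0.17, adjusted p = 0.00148). LHCB4.2, a gene of the same set, had 11.35 and 11.79 in OsTOP6B overexpressors, against 10.74 and 10.81 in wild type, and rose 1.73-fold (adjusted p = 0.0193). LHCB4.1, the third, had a difference of -0.23 ± 0.14 and did not pass (adjusted p = 0.294). Of the 3 CP29 genes, 1 thus fell, 1 rose and 1 did not pass in the same seedlings. The 2 measured mesophyll markers were RCA and LHCB4.2. Their summed normalized linear level was 10028 and 12315 in OsTOP6B overexpressors, against 9495 and 10154 in wild type. RCA had a log2 difference of 0.0012 and did not pass (adjusted p = 0.997), so the higher sum came mainly from LHCB4.2. The part of mesophyll content in these results was not tested.

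The further falls were of smaller size. CYTC6A, for a cytochrome of the thylakoid lumen, had 8.04 and 8.08 in OsTOP6B overexpressors, against 9.05 and 8.82 in wild type, and fell 1.83-fold (adjusted p = 0.00703). PGRL1B, a gene of cyclic electron flow, fell 1.75-fold, and PSAN, for a subunit of photosystem I, 1.78-fold. NdhN, a nuclear gene for the plastid NADH dehydrogenase-like complex, had -0.68 ± 0.15, the ATP synthase gamma-subunit gene ATPC2 -0.56 ± 0.13, and TROL, whose product tethers an electron transfer enzyme to the thylakoid, -0.48 ± 0.12. LHCB4.3 and CYTC6A were called with any 1 array left out. LHCB4.2 was lost without OsTOP6B replicate 2 (0.0508), wild-type replicate 1 (0.0923) or wild-type replicate 2 (0.0683), PSAN without wild-type replicate 1 (0.0713) or wild-type replicate 2 (0.0677), and PGRL1B without wild-type replicate 1 (0.0827) or wild-type replicate 2 (0.063). NdhN was lost without OsTOP6B replicate 1 (0.0665), wild-type replicate 1 (0.128) or wild-type replicate 2 (0.0732), ATPC2 without OsTOP6B replicate 1 (0.0511), OsTOP6B replicate 2 (0.0914), wild-type replicate 1 (0.095) or wild-type replicate 2 (0.133), and TROL without OsTOP6B replicate 1 (0.0798), OsTOP6B replicate 2 (0.0587), wild-type replicate 1 (0.162) or wild-type replicate 2 (0.125). With the values as deposited, unscaled between arrays, 1 of the 17 rose and 1 fell, and the median was -0.26 beside a shift of 0.18 over all probe sets.

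Factors that assemble the photosynthetic complexes or act on plastid RNA held 2 rises and 4 falls among 26, with a median of -0.32. On the deposited scale the list held 2 rises and 0 falls, with a median of -0.11 beside the shift of 0.18 over all probe sets, and without wild-type replicate 2 it held 2 rises and 1 fall. CcdA, for a thylakoid protein that passes reducing power into the lumen, had 9.27 and 9.65 in OsTOP6B overexpressors, against 7.85 and 7.51 in wild type, and rose 3.43-fold (adjusted p = 0.00111). It stood apart from the rest of its list, in which the next rise was that of the cytochrome b6 assembly gene CCB3, at 1.68-fold. PAM68 and LPA2, which encode assembly factors of photosystem II, fell 1.69-fold and 1.65-fold. PAC, a gene of chloroplast development, fell 1.6-fold, and ATAB2, for an activator of photosystem translation, 1.48-fold. CcdA held with each array left out. CCB3 was lost without wild-type replicate 1 (0.0757), PAM68 without wild-type replicate 2 (0.0549), and LPA2 without wild-type replicate 1 (0.0734). PAC was lost without wild-type replicate 1 (0.0674) or wild-type replicate 2 (0.0694), and ATAB2 without OsTOP6B replicate 2 (0.127), wild-type replicate 1 (0.17) or wild-type replicate 2 (0.121).

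Of 13 genes for tetrapyrrole and chlorophyll enzymes 1 rose and 4 fell, with a median of -0.29. On the deposited scale 1 rose and 0 fell, with a median of -0.12, and without wild-type replicate 1 none was called by limma. PORB, the protochlorophyllide oxidoreductase gene, had 9.55 and 9.48 in OsTOP6B overexpressors, against 10.53 and 10.36 in wild type, and fell 1.9-fold (adjusted p = 0.00827). CHLI2, for a magnesium chelatase subunit, fell 1.54-fold, NOL, for a chlorophyll b reductase, 1.44-fold, and HEMB1, of an early step of the pathway, 1.41-fold. The rise was that of HEMA2, a glutamyl-tRNA reductase gene, with 6.68 and 6.97 in OsTOP6B overexpressors, against 6.04 and 6.1 in wild type. PORB was lost without wild-type replicate 1 (0.0563), HEMA2 without OsTOP6B replicate 2 (0.0519), wild-type replicate 1 (0.0784) or wild-type replicate 2 (0.0598), and CHLI2 without OsTOP6B replicate 1 (0.0651), wild-type replicate 1 (0.125) or wild-type replicate 2 (0.0587). NOL was lost without OsTOP6B replicate 1 (0.0619), OsTOP6B replicate 2 (0.0561), wild-type replicate 1 (0.105) or wild-type replicate 2 (0.117) and HEMB1 without OsTOP6B replicate 2 (0.0867), wild-type replicate 1 (0.139) or wild-type replicate 2 (0.122). None of the 4 tested nuclear genes of carbon fixation and photorespiration passed, and the one with the smallest p, the hydroxypyruvate reductase gene HPR, had -0.3 ± 0.12 (adjusted p = 0.144).

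Organelle-encoded genes held mostly rises among their calls. For plastid genes this depended on single arrays, namely OsTOP6B replicate 1 and wild-type replicate 2. Most mitochondrial calls were also lost when single arrays were left out. Plastid genes of the NADH dehydrogenase-like complex, the ndh genes, held 4 rises and 0 falls among 9, with a median of 0.79. ndhH had 8.74 and 8.27 in OsTOP6B overexpressors, against 7.43 and 6.66 in wild type, and rose 2.75-fold (adjusted p = 0.0157). ndhA had 11.84 and 11.27 in OsTOP6B overexpressors, against 10.84 and 10.41 in wild type, and rose 1.9-fold. Replicate 1 was the higher in both groups for both genes. The list's median, taken relative to the wild-type mean of each gene, was 0.998 on OsTOP6B replicate 1 and 0.55 on OsTOP6B replicate 2, against 0.22 and -0.22 on the wild-type arrays. Without OsTOP6B replicate 1 no ndh gene was called, and without wild-type replicate 2 none was called either. The ndhH call was lost without OsTOP6B replicate 1 (0.075) or wild-type replicate 2 (0.0639), and that of ndhA without OsTOP6B replicate 1 (0.0899) or wild-type replicate 2 (0.136). ndhE and ndhK, the other 2, had 0.9 ± 0.25 and 0.8 ± 0.19, with calls lost without OsTOP6B replicate 1 (0.0828), wild-type replicate 1 (0.122) or wild-type replicate 2 (0.177) for ndhE and without OsTOP6B replicate 1 (0.111) or wild-type replicate 2 (0.148) for ndhK.

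Among 33 plastid genes for photosystem, cytochrome and ATP synthase subunits and the large Rubisco subunit, 1 rose, 1 fell and the median was 0.02. That median was 0.31 on OsTOP6B replicate 1 and -0.18 on OsTOP6B replicate 2, so the replicates lay on either side of the wild-type arrays, at 0.11 and -0.11. psbA, the gene of the photosystem II core protein D1, had 10.69 and 10.09 in OsTOP6B overexpressors, against 11.66 and 11.41 in wild type, and fell 2.21-fold (adjusted p = 0.011). rbcL, for the large Rubisco subunit, had 10.14 and 10.51 in OsTOP6B overexpressors, against 9.59 and 9.39 in wild type, and rose 1.78-fold (adjusted p = 0.0291). In rbcL the replicate with the lower 25S signal was the higher. Of 26 plastid genes for ribosomal proteins, the polymerase and others 3 rose, namely rpl20 (2.16-fold), accD (2.09-fold), of fatty acid synthesis, and rpl16 (1.84-fold). Without OsTOP6B replicate 1 this list held 0 rises and 2 falls, and the photosystem list 1 rise and 2 falls, while with an intensity trend in limma the ribosomal list held 6 rises and 2 falls. The median of the ribosomal list was 0.35 on OsTOP6B replicate 1 and -0.12 on OsTOP6B replicate 2. The psbA call was lost without wild-type replicate 1 (0.0669) and that of rbcL without OsTOP6B replicate 2 (0.119), wild-type replicate 1 (0.0763) or wild-type replicate 2 (0.126). Calls were lost for rpl20 without OsTOP6B replicate 1 (0.0756) or wild-type replicate 2 (0.109), for rpl16 without OsTOP6B replicate 1 (0.0644), OsTOP6B replicate 2 (0.081) or wild-type replicate 2 (0.0994), and for accD without OsTOP6B replicate 1 (0.13), OsTOP6B replicate 2 (0.102), wild-type replicate 1 (0.0641) or wild-type replicate 2 (0.166).

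In OsTOP6A3 overexpressors the same plastid genes were compared with the same wild-type arrays. The rpl16 difference from wild type was 0.88 with OsTOP6B and -0.52 with OsTOP6A3, that of rbcL 0.83 and -0.15, and that of psbA -1.15 and -2.2. For rpl20 the differences were 1.11 and 0.3, and for accD 1.06 and -0.28. In the ndh genes they were 0.93 and 0.86 for ndhA, 1.46 and 0.76 for ndhH, 0.9 and -0.56 for ndhE, and 0.8 and -0.08 for ndhK. Among these genes only psbA and ndhA were called with OsTOP6A3. Between the lines rpl16 differed by 1.4 with an adjusted p of 0.505, which did not pass. The 25S ribosomal RNA control was 315 and 46.7 on the OsTOP6B arrays, with plastid photosystem medians of 0.31 and -0.18. On the OsTOP6A3 arrays it was 53.9 and 66, with medians of -0.18 and -0.365, and on the wild-type arrays 23.9 and 53.7, with medians of 0.11 and -0.11. The replicate with more 25S signal thus had the higher plastid median in OsTOP6B overexpressors and the lower one in the other groups, and the part of this signal in the results was not tested.

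Mitochondrion-encoded genes held 4 rises and 0 falls among 12, with values above 0 in all 12 and a median of 0.47. Their median wild-type level was 5.47, within the lowest wild-type band, where 11.6% of all probe sets rose. nad1, for a subunit of respiratory complex I, had 6.06 and 6.54 in OsTOP6B overexpressors, against 5.33 and 5.2 in wild type, and rose 2.04-fold in the probe set with the highest signal (adjusted p = 0.00892). ccb452, a gene of cytochrome c maturation, had 6.98 and 7.07 in OsTOP6B overexpressors, against 6.13 and 6.13 in wild type, and rose 1.87-fold (adjusted p = 0.0088). nad9 rose 1.51-fold and ccb206 1.8-fold. ccb206 had 4.85 and 4.56 in wild type, below the filter line of 4.97 on both arrays, so it passed the filter only through the overexpressors and adds nothing to the count. The mitochondrial list had medians of 0.39 on OsTOP6B replicate 1 and 0.52 on OsTOP6B replicate 2. Replicate 1 was thus the lower of the OsTOP6B arrays, unlike in the plastid lists. The ccb452 call was made with any 1 array left out. That of nad1 was lost without wild-type replicate 2 (0.0509), of nad9 without OsTOP6B replicate 2 (0.0867), wild-type replicate 1 (0.07) or wild-type replicate 2 (0.137), and of ccb206 without OsTOP6B replicate 1 (0.0921), OsTOP6B replicate 2 (0.084), wild-type replicate 1 (0.0592) or wild-type replicate 2 (0.126). Nuclear genes of respiration held 2 rises among 15, SDH1-2, for a flavoprotein of succinate dehydrogenase, and NDB4, for an alternative NADH dehydrogenase. The wild-type mean of SDH1-2 was 4.75, below the filter line of 4.97. SDH1-2 thus passed the filter only through the overexpressors and adds nothing to the count, and its fold rests on wild-type values near background. SDH1-2 had 6.21 and 6.5 in OsTOP6B overexpressors, against 5.23 and 4.27 in wild type, a rise of 3.04-fold that was lost without OsTOP6B replicate 2 (0.0796). NDB4 rose 1.79-fold, a call lost without OsTOP6B replicate 1 (0.0508) or wild-type replicate 1 (0.0839).

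**Figure D4:**
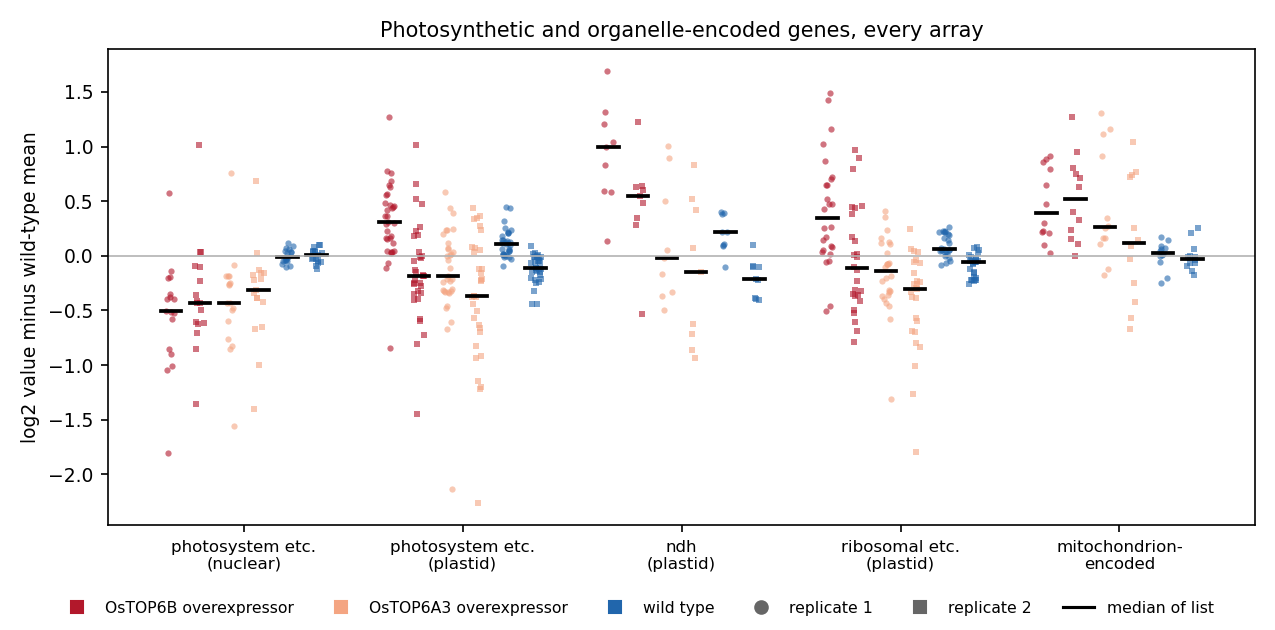
Points are genes of 5 lists on each of the 6 arrays, as the log2 value minus the gene's wild-type mean; circles are replicate 1, squares replicate 2 and bars the list median. Nuclear photosystem genes lie below 0 on both OsTOP6B arrays, at medians of -0.51 and -0.43, whereas the plastid photosystem list lies at 0.31 on replicate 1 and at -0.18 on replicate 2.

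Redox genes both rose and fell, and the largest change was a fall. Of 27 genes for ascorbate, glutathione and thioredoxin enzymes 4 rose and 5 fell, 33.3% called, whereas on the deposited scale 3 rose and 1 fell. SAPX, the stromal ascorbate peroxidase gene, had 6.87 and 6.94 in OsTOP6B overexpressors, against 9.05 and 8.96 in wild type, and fell 4.28-fold (adjusted p = 0.00012). The further falls were those of its thylakoid counterpart TAPX (1.7-fold), VTC4 of ascorbate synthesis (1.61-fold), the glutathione reductase gene GR (1.48-fold) and the plastid thioredoxin gene ATHM2 (1.43-fold). MSRB6, for a methionine sulfoxide reductase, had 9.66 and 9.54 in OsTOP6B overexpressors, against 8.55 and 8.78 in wild type, and rose 1.91-fold (adjusted p = 0.00641). MSRB9 of the same family rose 1.57-fold, the glutaredoxin gene GRXC2 1.56-fold and the sulfiredoxin gene SRX 1.48-fold. The list was drawn up from such enzyme classes, and a division of rises and falls between the classes was not tested. SAPX and MSRB6 held with each array left out. TAPX was lost without OsTOP6B replicate 2 (0.0512) or wild-type replicate 1 (0.0828), VTC4 without OsTOP6B replicate 1 (0.0634), wild-type replicate 1 (0.0922) or wild-type replicate 2 (0.117), and GR without OsTOP6B replicate 1 (0.0544), OsTOP6B replicate 2 (0.0541), wild-type replicate 1 (0.109) or wild-type replicate 2 (0.0931). ATHM2 was lost without OsTOP6B replicate 2 (0.0985), wild-type replicate 1 (0.116) or wild-type replicate 2 (0.167), MSRB9 without OsTOP6B replicate 1 (0.0603), OsTOP6B replicate 2 (0.166), wild-type replicate 1 (0.054) or wild-type replicate 2 (0.208), GRXC2 without OsTOP6B replicate 1 (0.0865), OsTOP6B replicate 2 (0.0509), wild-type replicate 1 (0.153) or wild-type replicate 2 (0.0548), and SRX without OsTOP6B replicate 1 (0.0646), wild-type replicate 1 (0.0922) or wild-type replicate 2 (0.117). Of 12 glutathione transferase genes only GSTU25 passed, with 7.34 and 7.08 in OsTOP6B overexpressors, against 5.99 and 6.13 in wild type.

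Genes of specialised metabolism held large rises. UDP-glycosyltransferases attach sugars to small molecules, and 6 of 39 rose while 3 fell. UGT74B1, which makes the core glucosinolate structure, had 9.18 and 8.64 in OsTOP6B overexpressors, against 6.54 and 6.95 in wild type, and rose 4.5-fold (2.17 ± 0.21, adjusted p = 0.000984). UGT85A2 had 9.31 and 9.54 in OsTOP6B overexpressors, against 7.56 and 7.61 in wild type, and rose 3.58-fold (adjusted p = 0.000565). In the opposite direction UGT84A1, which acts on phenylpropanoid acids, had 5.2 and 5.29 in OsTOP6B overexpressors, against 6.97 and 6.82 in wild type, and fell 3.13-fold (adjusted p = 0.00563). These 3 calls were made with any 1 array left out. UGT71C2 rose 2.38-fold, a call lost without wild-type replicate 1 (0.0669) or wild-type replicate 2 (0.0501), and UGT87A2 fell 1.74-fold, a call lost without wild-type replicate 1 (0.0571) or wild-type replicate 2 (0.0555).

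Of 16 cytochrome P450 genes 3 rose and 1 fell. Beside CYP71B34, which passed the filter only through the overexpressors, CYP718 had 6.64 and 6.93 in OsTOP6B overexpressors, against 5.96 and 5.55 in wild type, and rose 2.04-fold. CYP71B26 had 9.33 and 9.23 in OsTOP6B overexpressors, against 8.25 and 8.37 in wild type, and rose 1.96-fold. CYP71B28 fell 1.55-fold, so members of the CYP71B subfamily stood on both sides. The call of CYP71B28 was lost without OsTOP6B replicate 2 (0.0926), wild-type replicate 1 (0.138) or wild-type replicate 2 (0.0659), and those of the other 3 were made with any 1 array left out.

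Glucosinolate genes held 2 rises among 7 and values above 0 in all 7, the second rise being that of the transporter gene GTR2 at 1.4-fold, lost without OsTOP6B replicate 1 (0.0548), OsTOP6B replicate 2 (0.108), wild-type replicate 1 (0.102) or wild-type replicate 2 (0.181). Jacalin lectins of the group that binds the root beta-glucosidase PYK10 went both ways. JAL33 had 11.85 and 11.49 in OsTOP6B overexpressors, against 10.03 and 9.86 in wild type, and rose 3.31-fold (adjusted p = 0.0009), a call made with any 1 array left out. JAL34 rose 1.78-fold and JAL22 fell 1.69-fold. The JAL34 call was lost without wild-type replicate 2 (0.0563), and that of JAL22 without wild-type replicate 1 (0.0591).

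Secreted proteases also differed gene by gene, with 3 rises and 3 falls among 26 subtilases and serine carboxypeptidases. The subtilase gene SBT4.12 had 9.41 and 8.82 in OsTOP6B overexpressors, against 7.55 and 7.62 in wild type, and rose 2.9-fold (adjusted p = 0.00289). SBT3.12 had 5.36 and 4.83 in OsTOP6B overexpressors, against 6.57 and 6.54 in wild type, and fell 2.76-fold. The carboxypeptidase gene scpl31 had 5.43 and 5.83 in OsTOP6B overexpressors, against 7.73 and 7.16 in wild type, and fell 3.51-fold (adjusted p = 0.00289). Each of the 3 was called with any 1 array left out, so members of one protease family stood on both sides. SBT1.3 fell 1.54-fold, scpl48 rose 1.57-fold and SCPL45 rose 1.36-fold. These were lost for SBT1.3 without OsTOP6B replicate 2 (0.0682), wild-type replicate 1 (0.0945) or wild-type replicate 2 (0.0871), for scpl48 without OsTOP6B replicate 2 (0.063), wild-type replicate 1 (0.0713) or wild-type replicate 2 (0.1), and for SCPL45 without OsTOP6B replicate 1 (0.104), OsTOP6B replicate 2 (0.0662), wild-type replicate 1 (0.151) or wild-type replicate 2 (0.174).

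Genes known from cold, drought and seed drying held 4 rises and 2 falls among 14. Beside M17, which passed the filter only through the overexpressors, DI21, a drought-induced gene, had 10.44 and 9.96 in OsTOP6B overexpressors, against 7.87 and 7.4 in wild type, and rose 5.92-fold (adjusted p = 0.000476). OSM34, for an osmotin-like protein, had 11.26 and 11.45 in OsTOP6B overexpressors, against 10.54 and 9.53 in wild type, and rose 2.49-fold. The wild-type arrays of OSM34 lay far apart, and its call was lost without OsTOP6B replicate 1 (0.0672) or OsTOP6B replicate 2 (0.108). HVA22C rose 1.41-fold, while the cold-regulated genes COR47 and COR27 fell 1.57-fold and 1.53-fold. The calls of these were lost for HVA22C without OsTOP6B replicate 1 (0.119), OsTOP6B replicate 2 (0.0568), wild-type replicate 1 (0.095) or wild-type replicate 2 (0.21), for COR47 without OsTOP6B replicate 1 (0.0573), wild-type replicate 1 (0.111) or wild-type replicate 2 (0.0636), and for COR27 without OsTOP6B replicate 1 (0.0724), OsTOP6B replicate 2 (0.147), wild-type replicate 1 (0.173) or wild-type replicate 2 (0.123). DI21 held with each array left out.

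Heat-shock chaperones and their co-chaperones held 0 rises and 3 falls among 11, with a median of -0.27. Fes1 proteins are nucleotide exchange factors of Hsp70. Fes1B had 6.18 and 6.5 in OsTOP6B overexpressors, against 7.41 and 7.33 in wild type, and fell 2.04-fold (adjusted p = 0.00424). Fes1C had 7.72 and 7.65 in OsTOP6B overexpressors, against 8.47 and 8.59 in wild type, and fell 1.8-fold (adjusted p = 0.00525). Their relative Fes1A had 0.14 ± 0.13 and did not pass (adjusted p = 0.503). Both Fes1 calls were made with any 1 array left out, whereas that of the DnaJ gene ATJ1, at -0.5, was lost without OsTOP6B replicate 1 (0.066), OsTOP6B replicate 2 (0.0995), wild-type replicate 1 (0.189) or wild-type replicate 2 (0.0838). Of 14 genes for protein quality control in the endoplasmic reticulum none passed, and the smallest p in limma was that of DER2.1, at -0.51 ± 0.14 (adjusted p = 0.0519).

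Among secreted peptides of the CLE and RALF-like families 2 of 9 rose and 0 fell. RALFL32, a gene for a RALF-like secreted peptide, had 9.32 and 9.31 in OsTOP6B overexpressors, against 7.43 and 6.57 in wild type, and rose 4.99-fold (2.32 ± 0.25, adjusted p = 0.00157). CLE41, whose peptide moves from phloem to cambium and holds back xylem formation, had 7.73 and 8.06 in OsTOP6B overexpressors, against 6.92 and 6.56 in wild type, and rose 2.23-fold. RALFL32 and CLE41 were the calls among these peptide genes. Of 6 genes of stomatal and trichome patterning 0 rose and 2 fell, or 33.3% called, with 5 of 6 values below 0 and a median of -0.35, and limma called none on the deposited scale or without wild-type replicate 1. STOMAGEN, for a peptide that promotes stomata, had 8.0 and 8.3 in OsTOP6B overexpressors, against 9.33 and 9.0 in wild type, and fell 2.03-fold (adjusted p = 0.0105). TRY, for a repressor of trichome fate that is also the 1 measured trichome marker, fell 1.68-fold. FAMA, the guard cell regulator, had a difference of -0.37 and did not pass (adjusted p = 0.134). RALFL32 held with each array left out, whereas CLE41 was lost without OsTOP6B replicate 2 (0.0595) or wild-type replicate 2 (0.0572), STOMAGEN without wild-type replicate 1 (0.0655), and TRY without OsTOP6B replicate 1 (0.0724), OsTOP6B replicate 2 (0.116), wild-type replicate 1 (0.158) or wild-type replicate 2 (0.0544).

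Flowering regulators held 2 rises among 12. SMZ, an AP2-type repressor of flowering, had 7.54 and 7.25 in OsTOP6B overexpressors, against 6.31 and 6.46 in wild type, and rose 2.02-fold (adjusted p = 0.00443). ATC, a relative of TFL1, rose 1.57-fold, a call lost without OsTOP6B replicate 2 (0.0647), wild-type replicate 1 (0.109) or wild-type replicate 2 (0.0598). bHLH104, a transcription factor of the iron deficiency response, had 8.86 and 8.84 in OsTOP6B overexpressors, against 7.76 and 7.44 in wild type, and rose 2.38-fold. It was the only call among 11 iron and metal genes, and SMZ and bHLH104 held with each array left out. Defensin and other defence genes held 1 rise and 3 falls among 15, but 1 rise and 0 falls without OsTOP6B replicate 1, wild-type replicate 1 or wild-type replicate 2, or with no filter on low values, and 2 rises and 0 falls on the deposited scale. The defensin gene PDF2.5 had 8.46 and 8.26 in OsTOP6B overexpressors, against 7.32 and 7.2 in wild type, and rose 2.14-fold, also with any 1 array left out, while another defensin gene, PDF1.4, fell 1.93-fold, ATLP-1, for a thaumatin-like protein, 1.76-fold and the chitinase gene ChiC 1.69-fold. The PDF1.4 call was lost without OsTOP6B replicate 1 (0.0968), wild-type replicate 1 (0.109) or wild-type replicate 2 (0.0883), that of ATLP-1 without OsTOP6B replicate 1 (0.0724), wild-type replicate 1 (0.114) or wild-type replicate 2 (0.0589), and that of ChiC without OsTOP6B replicate 1 (0.0578), wild-type replicate 1 (0.103) or wild-type replicate 2 (0.119).

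Genes of DNA replication and repair held few calls, and most calls of chromatin genes depended on single arrays. Of 26 genes for replication, repair and recombination 0 rose and 1 fell, or 3.85% called beside 14.9% over the array. The fall was that of REV7, for a subunit of a translesion polymerase, with 5.22 and 5.38 in OsTOP6B overexpressors, against 6.04 and 6.45 in wild type (1.92-fold, adjusted p = 0.00984), and it held with each array left out. TOPII, the topoisomerase II gene, which stands in the mitosis list, had 6.8 and 6.87 in OsTOP6B overexpressors, against 7.21 and 7.39 in wild type, and fell 1.38-fold (adjusted p = 0.047), a call lost without OsTOP6B replicate 1 (0.098), OsTOP6B replicate 2 (0.0816), wild-type replicate 1 (0.0946) or wild-type replicate 2 (0.204). Of 22 genes for histones and chromatin 1 rose and 4 fell, or 22.7% called beside 14.9%, and on the deposited scale 1 rose and 1 fell. The SNF2-family remodeller gene CHR24 had 5.64 and 5.64 in OsTOP6B overexpressors, against 6.41 and 6.49 in wild type, and fell 1.75-fold, also with any 1 array left out. HIS1-3, for a linker histone, had 6.79 and 6.31 in OsTOP6B overexpressors, against 7.75 and 7.57 in wild type, and fell 2.16-fold. CHR18 fell 1.82-fold, the DNA demethylase gene DME 1.37-fold, and the histone deacetylase gene HDA15 rose 1.76-fold. HIS1-3 was lost without OsTOP6B replicate 2 (0.0838), wild-type replicate 1 (0.0906) or wild-type replicate 2 (0.0543), CHR18 without wild-type replicate 1 (0.0774) or wild-type replicate 2 (0.0825), DME without OsTOP6B replicate 1 (0.0503), OsTOP6B replicate 2 (0.122), wild-type replicate 1 (0.19) or wild-type replicate 2 (0.142), and HDA15 without OsTOP6B replicate 2 (0.0623) or wild-type replicate 2 (0.076). Of 12 RNA polymerase subunit genes none passed, with NRPA2 at 0.39 ± 0.12 (adjusted p = 0.0641).

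Mitosis and cell cycle genes held 1 rise and 3 falls among 20, TOPII included, but 1 rise and 0 falls on the deposited scale or without wild-type replicate 2. BUB3.2, of the spindle checkpoint, had 5.29 and 4.98 in OsTOP6B overexpressors, against 5.84 and 5.98 in wild type, and fell 1.71-fold (adjusted p = 0.02). AUR2, for an Aurora kinase, fell 1.47-fold. SAMBA, for a regulator of the anaphase-promoting complex, rose 1.69-fold. BUB3.2 was lost without OsTOP6B replicate 2 (0.0749), wild-type replicate 1 (0.0653) or wild-type replicate 2 (0.0969), AUR2 without OsTOP6B replicate 1 (0.083), OsTOP6B replicate 2 (0.0568), wild-type replicate 1 (0.11) or wild-type replicate 2 (0.128), and SAMBA without OsTOP6B replicate 1 (0.143), OsTOP6B replicate 2 (0.0646) or wild-type replicate 1 (0.19). Of 30 tubulin and cytoskeleton genes 0 rose and 4 fell, or 13.3% called beside 14.9% over the array, with a median of -0.14. On the deposited scale 0 rose and 0 fell. The falls were those of SP1L2 (1.97-fold), NET1A (1.73-fold), TUB1 (1.46-fold) and WLIM1 (1.42-fold). None of these 4 held with every array left out. SP1L2 was lost without wild-type replicate 1 (0.0512), NET1A without wild-type replicate 1 (0.0786), TUB1 without OsTOP6B replicate 2 (0.148), wild-type replicate 1 (0.205) or wild-type replicate 2 (0.115), and WLIM1 without OsTOP6B replicate 1 (0.11), wild-type replicate 1 (0.178) or wild-type replicate 2 (0.128).

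Of 37 vesicle traffic genes 4 rose and 4 fell, or 21.6% called beside 14.9% over the array, with a median of -0.04. On the deposited scale 4 of them rose and 0 fell, and with no filter 1 rose and 1 fell. Ubiquitin pathway genes held 2 rises and 2 falls among 31, close to the background. No gene of 12 for auxin response and transport passed, the smallest p being that of IAGLU, at -0.38 ± 0.13 (adjusted p = 0.0842). Sugar and starch genes held 2 rises and 1 fall among 19, or 2 rises and 3 falls with an intensity trend or a pseudocount of 64. APL4, for a large subunit of ADP-glucose pyrophosphorylase, had 7.23 and 6.98 in OsTOP6B overexpressors, against 6.1 and 6.09 in wild type, and rose 2.01-fold (adjusted p = 0.00424). SWEET17, a fructose transporter gene of the vacuole, had 8.8 and 8.12 in OsTOP6B overexpressors, against 7.41 and 7.02 in wild type, and rose 2.38-fold, a call lost without wild-type replicate 2 (0.0687). Of 10 glutamate receptor and cation exchanger genes GLR2.7 had 7.29 and 7.57 in OsTOP6B overexpressors, against 5.75 and 5.67 in wild type, and rose 3.29-fold (adjusted p = 0.000589). GLR3.6 and CHX20 fell 1.84-fold and 1.75-fold, though neither was called on the deposited scale, where 1 rose and 0 fell, and APL4, GLR2.7, GLR3.6 and CHX20 were called with any 1 array left out.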

How the data were processed

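RNA of 6 seedling samples had been hybridised to 1-colour Affymetrix Arabidopsis arrays. The deposited intensity values are linear, 1 per probe set and array, with column medians of 103.5 and 66.2 (OsTOP6B), 95.2 and 90.7 (OsTOP6A3) and 69.7 and 71.7 (wild type). How the authors made them is not given in the sources used here.

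Of 22810 probe sets 64 controls were left out. The rest were turned into log2(intensity + 16) and quantile normalized over the 6 arrays. Probe sets with a mean under the 25th percentile were not tested, which left 17059. A linear model was fitted to all 6 arrays in limma 3.58.1 (lmFit, then eBayes; R 4.3.3), with 3 residual and 4.61 prior degrees of freedom and no replicate block. The fit was also run on 10 simulated data sets, each with 200 probe sets changed in OsTOP6B overexpressors alone. The data themselves held more calls, so these runs bear on no result here. Whether the replicates came from separate plants or plates is not labelled beyond their being called biological replicates, and the number of arrays limits the precision.

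Genes were named from the platform annotation, which gives 1 gene for 13513 probe sets, and none or several for the others. Names were checked against TAIR10.1, where 13436 matched. Where a gene had more than 1 probe set, its list entry was the probe set of highest mean. Gene lists and members were chosen with earlier results of these data known. Named genes are the 3 largest rises and falls per wild-type band, up to 4 calls per list and direction or the smallest p of a list with none, the smallest adjusted p, and the largest changes in the top twentieth of wild type, not all of which are printed. NdhN, ATPC2, TROL, ATHM2 and members that did not pass beside a named relative were added after their values were seen.

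Same-numbered replicates of different groups deviated together with correlations of -0.050 to 0.0155, so the numbers were not taken as pairs. Alternatives were the 4 arrays alone, no filter, an intensity trend, pseudocounts of 1 and 64, median scaling, the deposited scale, a replicate block and each of the 4 arrays left out. In fits with an array left out the lone array is assumed to vary as the others do.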

Additional observations from a re-analysis of the deposited data

Results flagged for a closer look

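Control probe sets took no part in the comparison, and 2 of them showed signal that differed between arrays. For 25S ribosomal RNA the value was 315 on OsTOP6B replicate 1 and 46.7 on OsTOP6B replicate 2, with 53.9 and 66 in OsTOP6A3 overexpressors and 23.9 and 53.7 in wild type. It stood out because 1 array lay above the level of both wild-type arrays while its replicate lay within their range.

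A further control probe set, whose target is not named in the sources used here, read 323.7 and 365 in OsTOP6B overexpressors and 496.7 and 484 in OsTOP6A3 overexpressors, against 3.1 and 19.2 in wild type. It stood out because every overexpressor array lay above both wild-type arrays.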

How the results depend on the processing

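The 1350 rises and 1190 falls kept to within 1.5 times under the 4 arrays alone (1010 and 826), median scaling (1343 and 1105), pseudocounts of 1 (1004 and 802) and 64 (1697 and 1703), an intensity trend (1697 and 1644) and the replicate block (1180 and 981). Without the filter on low values 891 rose and 717 fell among 22746 probe sets. On the deposited scale 1233 rose and 227 fell, and 84.5% of calls were rises against 53.1%, with a median of all differences of 0.18. With 1 array left out, rises ranged from 698 to 1053 and falls from 356 to 1157. These fits have fewer arrays by construction. No probe set called in the comparison changed sign in any of these fits.

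Of 169 named probe sets that were called, the deposited scale lost 64, no filter 52, the pseudocount of 1 lost 38, the 4 arrays alone 30, the replicate block 16, median scaling 8, the intensity trend 4 and the pseudocount of 64 lost 2. A few named probe sets fell below the filter under the pseudocount of 1 or with a wild-type array left out, and these are not counted as lost. Calls lost with an array left out were 48 and 54 for OsTOP6B replicates 1 and 2, and 82 and 78 for wild-type replicates 1 and 2. In all, 67 were called in every fit with an array left out.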

Other observations

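Outside the families described above, single genes changed in OsTOP6B overexpressors. ATG8F, of the autophagy core, had 10.72 and 10.82 in OsTOP6B overexpressors, against 10.16 and 10.27 in wild type, and was the only call among 10 autophagy genes, at 1.47-fold higher. SIR, the sulfite reductase gene, had 9.36 and 9.33 in OsTOP6B overexpressors, against 10.04 and 9.99 in wild type, and was the only call among 10 sulfur and methionine genes, at 1.6-fold lower, whereas that list held 3 rises and 1 fall with an intensity trend or a pseudocount of 64. SLY1, for an F-box protein of gibberellin signalling, was 1.47-fold higher and the only call among 6 such genes. The ATG8F call was lost without OsTOP6B replicate 2 (0.0679), wild-type replicate 1 (0.132) or wild-type replicate 2 (0.0733), that of SIR without wild-type replicate 1 (0.0671) or wild-type replicate 2 (0.0506), and that of SLY1 without OsTOP6B replicate 1 (0.0594), OsTOP6B replicate 2 (0.0623), wild-type replicate 1 (0.0637) or wild-type replicate 2 (0.133), with adjusted p in brackets.

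Calls were spread over the nuclear chromosomes, with rises in 8.15%, 9.29%, 7.75%, 9.51% and 7.38% of the tested genes on chromosomes 1, 2, 3, 4 and 5, and falls in 6.67%, 6.26%, 7.06%, 6.12% and 7.38%.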
